A study of Mus musculus with 12 samples.

Results

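The 10 genes described here mark the monocyte and macrophage lineage: the transcription factors Irf8, Irf4, Irf5 and Klf4, the surface and secreted receptor proteins Csf1r, Cd14, Ly86 and Trem2, and the effector proteins F13a1 and C1qb. They were taken by symbol from the 23362 genes counted in 12 mouse RNA-seq libraries, 3 in each of 4 groups, and all 10 were found. The groups were GATA2-GMP KO, GATA2-GMP WT, GMP KO and GMP WT, all of C57BL/6 background. GMP are granulocyte-macrophage progenitors of the bone marrow, the shared source of granulocytes and monocytes, KO means Xbp1-deficient and WT wild-type. GATA2-GMP were GMP given the transcription factor GATA2 by transduction, sorted again and kept in culture for 48 h, a model that drives progenitors towards eosinophils. Which Xbp1 allele the KO cells carried, and whether replicates were separate animals, is not in the labels, so p-values measure the spread between these libraries, which may be technical. GMP RNA went directly into a TruSeq library, whereas GATA2-GMP RNA was first amplified with a low-input SMARTer kit, so that GATA2, culture, time and kit cannot be told apart in any comparison of the stages.

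Monocytes arise from GMP under the transcription factors PU.1, IRF8 and KLF4. IRF8 favours the monocyte and dendritic cell fates over the granulocyte fate, IRF4 acts in dendritic cells, lymphocytes and alternatively activated macrophages, and IRF5 drives inflammatory cytokine genes. Developing monocytes depend on the receptor CSF1R and its ligands CSF1 and IL-34. CD14 hands lipopolysaccharide to the TLR4-MD-2 complex, MD-1 (encoded by Ly86) holds the TLR4-like receptor RP105 (Cd180) on the surface, and TREM2 is a lipid receptor of macrophages and microglia that signals through the adaptor TYROBP. Coagulation factor XIII subunit A (F13a1) crosslinks fibrin and is abundant in monocytes, and the C1q chains (C1qa, C1qb and C1qc) start the classical complement pathway and are made largely by tissue macrophages. XBP1 is the transcription factor of the IRE1 arm of the unfolded protein response.

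Promoter windows of 4 genes with few reads in GATA2-GMP are shown here. Irf8 was chosen because it was nearly silent there, and Irf4, Trem2 and C1qb because their KO and WT libraries of GATA2-GMP did not overlap. Each window holds the 250 bases before the annotated start, 5′ to 3′ on the gene's strand, from RefSeq on build GRCm38.p6. Capitals mark matches to the motifs searched on both strands.
Irf8, chr8:120736108-120736357, plus strand: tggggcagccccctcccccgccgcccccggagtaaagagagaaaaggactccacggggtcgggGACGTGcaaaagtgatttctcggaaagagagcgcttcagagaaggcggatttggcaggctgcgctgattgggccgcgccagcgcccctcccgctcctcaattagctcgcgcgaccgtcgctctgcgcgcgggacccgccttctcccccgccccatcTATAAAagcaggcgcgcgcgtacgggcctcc
Irf4, chr13:30748983-30749232, plus strand: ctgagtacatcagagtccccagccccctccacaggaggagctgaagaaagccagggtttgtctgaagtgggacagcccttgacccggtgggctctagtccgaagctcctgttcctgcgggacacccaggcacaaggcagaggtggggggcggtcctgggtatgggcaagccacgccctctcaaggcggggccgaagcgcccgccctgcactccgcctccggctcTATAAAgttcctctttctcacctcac
Trem2, chr17:48346151-48346400, plus strand: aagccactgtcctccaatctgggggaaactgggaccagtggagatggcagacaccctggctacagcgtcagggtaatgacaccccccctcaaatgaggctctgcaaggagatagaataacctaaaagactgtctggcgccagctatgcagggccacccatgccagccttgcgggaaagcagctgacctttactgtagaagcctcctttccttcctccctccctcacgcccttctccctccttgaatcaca
C1qb, chr4:136886201-136886450, minus strand: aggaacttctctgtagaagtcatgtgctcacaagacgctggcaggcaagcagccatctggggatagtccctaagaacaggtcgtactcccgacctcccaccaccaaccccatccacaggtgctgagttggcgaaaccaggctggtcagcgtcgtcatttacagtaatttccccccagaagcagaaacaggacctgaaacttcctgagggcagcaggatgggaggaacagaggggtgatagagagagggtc
The motifs were a PU.1-IRF composite (GGAA and, after any 2 bases, GAAA), the core of an interferon response element (GAAA repeated after any 2 bases), AGATAA (bound by GATA factors), GACGTG (the core of an XBP1 site) and TATAAA (the box that positions transcription starts). Irf8 held GACGTG 187 bases before its start, a motif found in 5.2% of 32851 windows of the same length, and TATAAA 31 bases before it. Irf4 held TATAAA 26 bases before its start, as did 12.4% of all windows at some position. No other match was found in the 10 windows of the 8 genes with a RefSeq entry, where the composite stood in 2.3%, the interferon response core in 2.98% and AGATAA in 9.99% of all windows. A missing match says only that these letters are not in the window.

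Library totals ran from 8219366 to 33640911 counts, so that 1 CPM (counts scaled to library size) stood for at least 8.22 reads. Xbp1 itself was at 99.9 to 128 CPM in GATA2-GMP KO, against 197 to 381 CPM in GATA2-GMP WT, and at 55.9 to 89.8 CPM in GMP KO, against 131 to 153 CPM in GMP WT. Transcript was thus lower and not absent in KO cells. Gata2 was at 223 to 370 CPM in the GATA2-GMP libraries, against 22.5 to 39.7 CPM in the GMP libraries. Summed over 10 eosinophil genes, the level was 56409 to 68501 CPM in GATA2-GMP KO and 135829 to 207204 CPM in GATA2-GMP WT, against at most 644 CPM in any GMP library. The 5 genes listed as GMP markers (Kit, Cd34, Fcgr3, Fcgr2b and the transcription factor gene Cebpa) were above 1 CPM in all 12 libraries. All CPM values below are on a common scale over the 12 libraries, and fold changes and p-values come from edgeR's quasi-likelihood test in each comparison, adjusted over all genes tested.

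Irf8, Klf4, Csf1r, F13a1 and Ly86, 5 of the 10 lineage genes, were far lower in GATA2-GMP than in GMP in both genotypes, with log2 fold changes from -13.41 (F13a1 in WT cells) to -3.15 (Csf1r in WT cells). In KO cells 10 of the genes were tested between the stages, and 3 rose (Irf4, Cd14 and C1qb), 5 fell (Irf8, Klf4, Csf1r, F13a1 and Ly86) and 2 did not pass (Irf5 and Trem2). In WT cells 8 were tested, and 1 rose (Cd14) and 7 fell. The median log2 fold change was -1.96 over the 10 genes in KO cells and -4.17 over the 8 in WT cells. Over all genes tested it was -0.055 in KO cells and -0.092 in WT cells. The medians of the lineage genes do not compare the genotypes. The KO set also holds Irf4 and C1qb, which entered the test largely through their GATA2-GMP libraries and rose. Of all genes, 78.6% were called in KO cells (38.6% higher, 40% lower) and 70.5% in WT cells (34.1% higher, 36.4% lower), so the sizes of the differences and not the number of calls are described below. The scaling by TMM takes most genes as unchanged, which these shares do not bear out. On the common scale its factors were 1.28 to 1.36 in the GMP libraries and 0.688 to 0.872 in the GATA2-GMP libraries. Small stage folds, such as those of Cd14 and Irf5, depend on these factors. Because these are bulk samples, fewer cells of a type and less RNA per cell cannot be told apart.

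**Figure D1:**
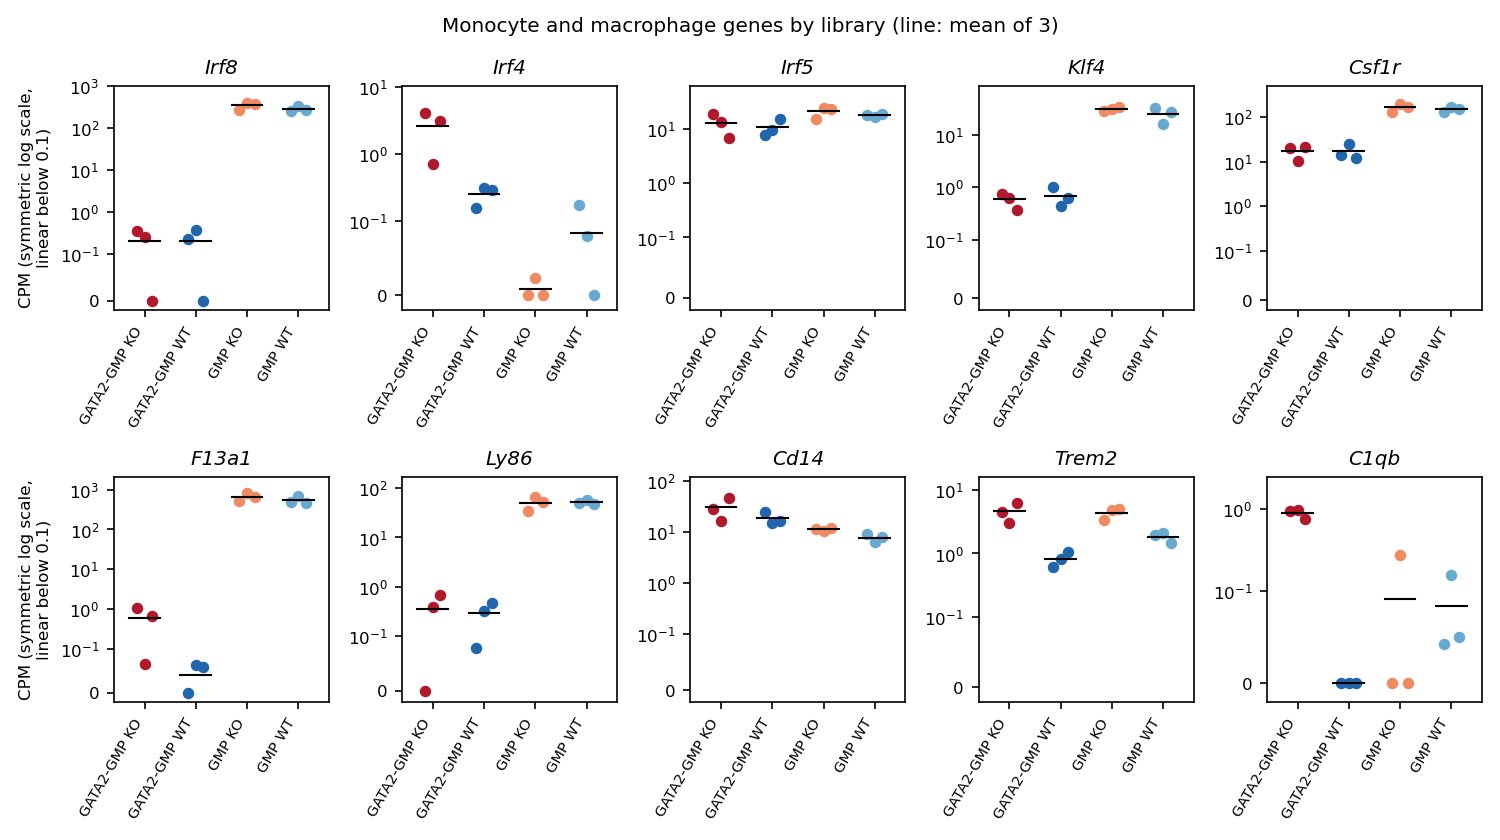
CPM of the 10 lineage genes in each of the 12 libraries, on a symmetric log axis that is linear below 0.1 CPM; points are libraries and black lines the means of 3. Irf8, Klf4, Csf1r, F13a1 and Ly86 are high in both GMP groups and low in both GATA2-GMP groups, while Trem2 is higher in KO than in WT at either stage.

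Irf8, at chr8:123260258-123280594 (mm9, plus strand), was the clearest case among the transcription factors. It was at 0.350, 0.256 and 0 CPM in GATA2-GMP KO, against 273, 407 and 374 CPM in GMP KO. In WT cells it was at 0.232, 0.377 and 0 CPM in GATA2-GMP, against 259, 341 and 273 CPM in GMP. No library of a GATA2-GMP group came near a GMP library, and 1 library of each GATA2-GMP group had no read at all. The log2 fold change between stages was -10.62 (SE 0.42, adjusted p = 1.98e-07) in KO cells and -10.48 (SE 0.51, adjusted p = 4.10e-06) in WT cells. These folds rest on 10 reads in GATA2-GMP KO and 9 in GATA2-GMP WT. By pooled reads, GMP were 1646-fold higher than GATA2-GMP in KO cells (95% interval 895 to 3434) and 1498-fold higher in WT cells (789 to 3277), intervals that cover counting error only. The annotation places Gm20388 over Irf8 on the same strand, so reads of these 2 genes could not be told apart by strand.

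Klf4, at chr4:55540013-55545347 (minus strand), encodes a zinc finger factor needed for inflammatory monocytes in mice. It was at 0.758, 0.640 and 0.376 CPM in GATA2-GMP KO, against 28.6, 31.5 and 34.0 CPM in GMP KO. WT cells had 1.01, 0.439 and 0.641 CPM in GATA2-GMP, against 32.5, 15.8 and 27.7 CPM in GMP. The stages did not overlap in either genotype, and GMP WT 2 was the lowest GMP library. Klf4 fell, with a log2 fold change of -5.67 in KO cells (SE 0.25, adjusted p = 2.43e-07) and -5.20 in WT cells (SE 0.41, adjusted p = 2.34e-05).

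Irf5, at chr6:29476625-29491869 (plus strand), stayed within the same order of magnitude throughout. It was at 18.4, 12.99 and 6.83 CPM in GATA2-GMP KO, against 14.8, 24.3 and 23.0 CPM in GMP KO. WT cells had 7.58, 9.35 and 15.2 CPM in GATA2-GMP, against 17.8, 16.3 and 18.7 CPM in GMP. The stages overlapped in KO cells and lay apart in WT cells by little, GATA2-GMP WT 3 being close to GMP WT 2. The log2 fold change was -0.69 in KO cells (SE 0.34, adjusted p = 0.0900) and -0.70 in WT cells (SE 0.27, adjusted p = 0.0482). The WT call was lost without GMP WT 1 (adjusted p = 0.110), GMP WT 2 (0.0843), GMP WT 3 (0.126), GATA2-GMP WT 1 (0.112) or GATA2-GMP WT 2 (0.134), and the KO value passed without GATA2-GMP KO 1 (-1.06, adjusted p = 0.0265) and with no filter on low counts (-0.78, 0.0380). Irf5 overlaps Tnpo3 on the other strand, and the strand setting of the counting is not stated, so reads of these 2 genes cannot be separated.

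Irf4, at chr13:30841095-30858796 (plus strand), ran the opposite way. It was at 4.14, 0.704 and 3.08 CPM in GATA2-GMP KO, against 0, 0.0230 and 0 CPM in GMP KO, which is a single read. In WT cells it was at 0.155, 0.314 and 0.291 CPM in GATA2-GMP, against 0.171, 0.0798 and 0 CPM in GMP. All 3 GATA2-GMP KO libraries stood above all 9 others, and GATA2-GMP KO 2 was the lowest of the 3. Irf4 rose by 7.23 on the log2 scale between the stages in KO cells (SE 1.02, adjusted p = 0.000171), a fold that depends on how 1 read against 123 is treated. The pooled ratio was 221 (95% counting interval 38.9 to 8785, without the spread between libraries). In WT cells the gene had 12 reads in GATA2-GMP and 6 in GMP and was too low to be tested.

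Csf1r, at chr18:61265226-61291803 (plus strand), the receptor for CSF1 and IL-34, was reduced and clearly detectable. It was at 20.5, 10.6 and 21.3 CPM in GATA2-GMP KO, against 129, 200 and 168 CPM in GMP KO. Among WT cells there were 13.8, 24.5 and 12.2 CPM in GATA2-GMP, against 130, 171 and 151 CPM in GMP. Every GATA2-GMP library was below every GMP library. Csf1r fell, at a log2 fold change of -3.24 in KO cells (SE 0.29, adjusted p = 1.01e-05) and -3.15 in WT cells (SE 0.29, adjusted p = 4.99e-05). Its ligand Csf1 rose by 2.18 in KO cells (adjusted p = 4.20e-06) and by 2.21 in WT cells (adjusted p = 3.56e-05), while the other ligand, Il34, had at most 1 read in any group. Csf1r overlaps Hmgxb3 on the other strand. Sfpi1, the name in the files for the gene of PU.1, which acts on myeloid promoters, fell too, with -2.79 in KO cells (SE 0.29, adjusted p = 2.24e-05) and -2.13 in WT cells (SE 0.38, adjusted p = 0.00134).

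Cd14, at chr18:36884728-36886390 (minus strand), was the only lineage gene that rose between the stages in both genotypes. It was at 28.1, 16.3 and 46.6 CPM in GATA2-GMP KO, against 11.6, 10.6 and 11.6 CPM in GMP KO. Among WT cells the levels were 24.2, 14.7 and 16.4 CPM in GATA2-GMP, against 8.93, 6.18 and 7.80 CPM in GMP. The stages did not overlap, and the GATA2-GMP libraries were more spread out than the GMP libraries. Cd14 rose by 1.44 on the log2 scale in KO cells (SE 0.33, adjusted p = 0.00336) and by 1.28 in WT cells (SE 0.26, adjusted p = 0.00265). The rest of its lipopolysaccharide receptor chain also rose: in KO cells by 3.51 for Ly96, which encodes MD-2, by 2.70 for Tlr4 and by 0.98 for the adaptor Myd88. In WT cells the log2 rises were 3.83 for Ly96, 1.77 for Tlr4 and 1.21 for Myd88, and the largest adjusted p of these 6 values was 0.000307.

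Ly86, at chr13:37437214-37510905 (plus strand), and its partner Cd180 went down together. Ly86 was at 0, 0.384 and 0.676 CPM in GATA2-GMP KO, against 34.8, 66.2 and 52.9 CPM in GMP KO. In WT cells Ly86 was at 0.0774, 0.314 and 0.466 CPM in GATA2-GMP, against 50.6, 59.1 and 48.2 CPM in GMP. No GATA2-GMP library reached 1 CPM, whereas all GMP libraries were above 30 CPM. Ly86 fell, with a log2 fold change of -7.25 in KO cells (SE 0.54, adjusted p = 3.64e-06) and -7.41 in WT cells (SE 0.38, adjusted p = 4.51e-06). Cd180 fell, with -3.91 in KO cells (SE 0.35, adjusted p = 9.79e-06) and -5.47 in WT cells (SE 0.58, adjusted p = 8.81e-05).

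Trem2, at chr17:48485726-48493472 (plus strand), and its adaptor did not move together. Trem2 was at 4.55, 3.01 and 6.31 CPM in GATA2-GMP KO, against 3.43, 4.83 and 5.02 CPM in GMP KO. In WT cells Trem2 was at 0.619, 0.816 and 1.05 CPM in GATA2-GMP, against 1.97, 2.07 and 1.45 CPM in GMP. The KO groups overlapped and the WT groups did not. The log2 fold change between stages was 0.074 in KO cells (SE 0.32, adjusted p = 0.837), and its sign turned with upper quartile scaling (-0.071) and with no filter on low counts (-0.025). In WT cells Trem2 fell by 1.12 (SE 0.38, adjusted p = 0.0275), a call lost without GMP WT 1 (adjusted p = 0.118), GMP WT 2 (0.128), GMP WT 3 (0.0606) or GATA2-GMP WT 2 (0.0514). Tyrobp rose by 4.20 in KO cells (SE 0.32, adjusted p = 3.77e-06) and by 4.67 in WT cells (SE 0.34, adjusted p = 1.61e-05), reaching 1476, 1483 and 2843 CPM in GATA2-GMP KO and 2758, 2894 and 1358 CPM in GATA2-GMP WT.

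F13a1, at chr13:36959047-37142113 (minus strand), had the highest level of the 10 genes in GMP. It was at 1.05, 0.0640 and 0.676 CPM in GATA2-GMP KO, against 535, 816 and 677 CPM in GMP KO. In WT cells F13a1 was at 0, 0.0628 and 0.0583 CPM in GATA2-GMP, against 489, 684 and 462 CPM in GMP. F13a1 fell, with a log2 fold change of -10.10 in KO cells (SE 0.50, adjusted p = 4.41e-07) and -13.41 in WT cells (SE 0.43, adjusted p = 1.87e-06). With 2 reads in GATA2-GMP WT, the pooled ratio of GMP to GATA2-GMP was 12708 in WT cells (95% interval 3518 to 104937). With 28 reads in GATA2-GMP KO it was 1156 in KO cells (800 to 1739). Both intervals cover counting error only.

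C1qb, at chr4:136436044-136442102 (minus strand), was near the limit of detection. It was at 0.933, 0.960 and 0.751 CPM in GATA2-GMP KO, against 0, 0.276 and 0 CPM in GMP KO. In WT cells it was at 0 CPM in all 3 GATA2-GMP libraries, against 0.0427, 0.160 and 0.04998 CPM in GMP. All 12 reads of GMP KO came from library 2. C1qb rose by 2.70 on the log2 scale between the stages in KO cells (SE 0.80, adjusted p = 0.0123), and by 6.92 (adjusted p = 0.00170) without GMP KO 2, where GMP KO had no read left. The pooled ratio was 6.13 (95% counting interval 3.16 to 12.8), an interval that leaves out the spread between libraries. In WT cells GATA2-GMP had no read against 6 in GMP, too few to show a difference. The gene was too low to be tested there, and with no filter the edgeR adjusted p was 0.120.

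**Figure D2:**
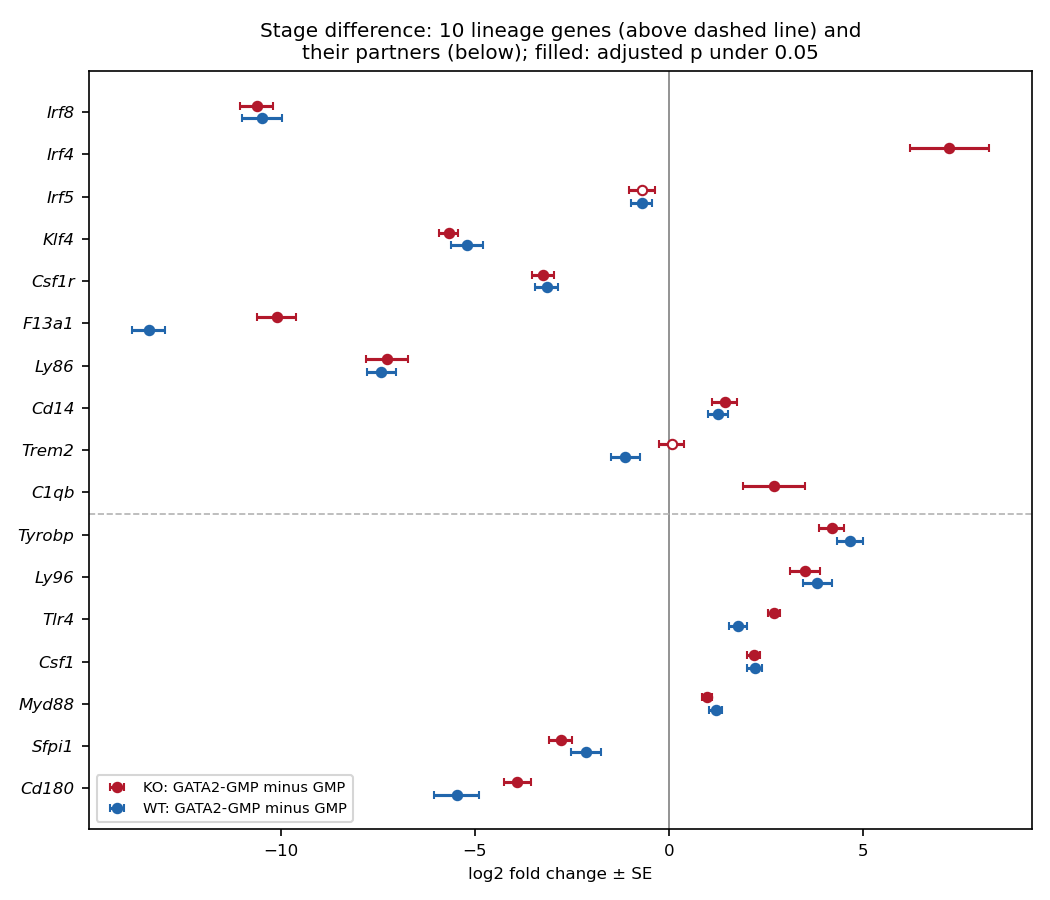
Log2 fold change of GATA2-GMP over GMP with its SE for the 10 lineage genes and 7 partner genes, KO cells in red and WT cells in blue, filled where the adjusted p was under 0.05. F13a1 reaches -13.41 in WT cells and -10.10 in KO cells, while Tyrobp, Ly96, Tlr4, Csf1 and Myd88 lie to the right of 0 in both; Irf4 and C1qb have a KO value only.

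Broader lists of monocyte and macrophage genes held members that moved in both directions. Of 21 monocyte genes tested, 12 rose and 8 fell in KO cells, and 10 rose and 8 fell in WT cells. The high-affinity IgG receptor Fcgr1 rose by 6.53 in KO cells and by 7.35 in WT cells, while others fell. The perforin-like gene Mpeg1 was at -4.98 in KO cells and -4.5 in WT cells, the heparanase gene Hpse at -5.34 in KO cells and -4.57 in WT cells, and Ms4a6c at -4.44 in both. Fn1 (fibronectin) fell by 4.14 in KO cells, and the chemokine receptor gene Cx3cr1 fell by 4.87 in WT cells. Of 16 macrophage genes tested, 13 rose and 3 fell in KO cells, and 13 rose and 2 fell in WT cells. The rises in KO cells included 10.38 for Gpnmb, a lysosomal glycoprotein, 5.90 for Emr1, which encodes F4/80, and 5.77 for the scavenger receptor gene Msr1. In WT cells they included 8.38 for Gpnmb, 5.84 for Emr1 and 5.05 for the heme oxygenase gene Hmox1. Apoe (apolipoprotein E) fell, with -5.42 in KO cells and -5.61 in WT cells. The haemoglobin scavenger receptor gene Cd163 fell by 6.54 in KO cells. In WT cells Cd163 was at least 160-fold lower in GATA2-GMP, which had no read, than in GMP, counted against a floor of 3 reads over the group. Emr1 and Tyrobp are also expressed by eosinophils, and the eosinophil, neutrophil and mast cell lists moved with the stage as well: all 10 eosinophil genes tested rose in WT cells, and 9 of the 10 in KO cells. The part of these other cells in the rises was not tested.

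In GATA2-GMP no lineage gene passed edgeR's threshold between KO and WT. Irf4, Trem2, C1qb and F13a1, all with few reads, had a pooled level at least 5.35-fold higher in KO. The pooled level was also higher in KO, by 1.64-fold or less, for Cd14, Irf5, Csf1r, Irf8 and Ly86, and lower for Klf4. None of the 7 genes tested passed the adjusted threshold, where 0.376% of all 11699 genes did. At an unadjusted p under 0.05, 3 of them were higher (Irf4, Trem2 and C1qb) and none lower, where 6.59% of all genes were higher and 8.31% lower. DESeq2 called 2 (Trem2 and Irf4), where it called 568 of all genes and edgeR 44. In 3 of the 7 tested genes KO and WT libraries did not overlap, with KO higher in each, as in 10.2% of all genes. The median log2 fold change over the 7 was 0.72, the same with C1qb placed at its lower bound, beside -0.0049 over all genes. Irf4 and C1qb entered the test through their KO libraries, while Irf8 and Ly86, nearly equal in KO and WT, were too low to enter. The counts and the median above therefore depend in part on the count filter.

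**Figure D3:**
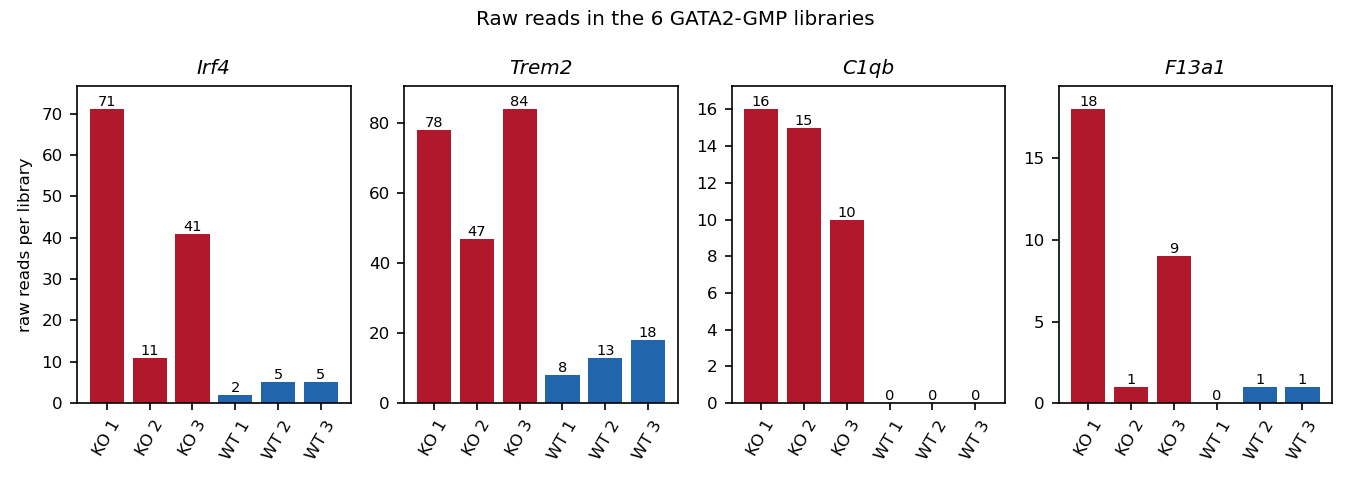
Raw reads of Irf4, Trem2, C1qb and F13a1 in the 6 GATA2-GMP libraries, KO in red and WT in blue, each panel with its own axis from 0. All Irf4, Trem2 and C1qb bars of KO exceed those of WT, and C1qb has no read in any WT library; for F13a1, KO 2 holds 1 read as do WT 2 and WT 3.

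Trem2 had 78, 47 and 84 reads in GATA2-GMP KO, against 8, 13 and 18 in GATA2-GMP WT. Every KO library held more reads than any WT library. KO over WT came to a log2 fold change of 2.46 (SE 0.48, edgeR adjusted p = 0.0728). It passed with DESeq2 (adjusted p = 0.000229), with no filter on low counts (0.00680), with all 4 groups in a joint fit (0.00224) and without GATA2-GMP WT 3 (0.0335), and over 14 alternatives the adjusted p ran from 0.000229 to 0.344.

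Irf4 had 71, 11 and 41 reads in GATA2-GMP KO, against 2, 5 and 5 in GATA2-GMP WT. KO 2 stood apart from the other KO libraries but above every WT library. Its log2 fold change was 3.32 (SE 0.77, edgeR adjusted p = 0.121), and the pooled ratio was 10.2 (95% counting interval 5.65 to 20.4). It passed with DESeq2 (adjusted p = 0.00323), with no filter (0.00889) and with all 4 groups in a joint fit (0.0136), within a range of 0.00323 to 0.460 over 13 alternatives.

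C1qb had 16, 15 and 10 reads in GATA2-GMP KO and none in the 3 GATA2-GMP WT libraries. That is at least 13.6-fold higher in KO, with 41 reads against a floor of 3 over the group (edgeR adjusted p = 0.0864). It passed with no filter on low counts (adjusted p = 0.0193) and with all 4 groups in a joint fit (0.0181), and DESeq2 gave it no adjusted p. The other chains of C1q did not share its reads: C1qa had 5, 0 and 0 reads in GATA2-GMP KO against none in GATA2-GMP WT, and C1qc had none in GATA2-GMP KO against 1 in GATA2-GMP WT.

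F13a1 had 18, 1 and 9 reads in GATA2-GMP KO, against 0, 1 and 1 in GATA2-GMP WT. It was below the count filter of the main test. The pooled ratio was 13.98 (95% counting interval 3.53 to 121), and the adjusted p was 0.300 with no filter and 0.0357 with all 4 groups in a joint fit. In KO 2 the level was the same single read as in WT 2 and WT 3.

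The more abundant lineage genes showed smaller differences. Cd14 was at 28.1, 16.3 and 46.6 CPM in GATA2-GMP KO, against 24.2, 14.7 and 16.4 CPM in GATA2-GMP WT, overlapping groups with a log2 fold change of 0.72 (SE 0.38, edgeR adjusted p = 0.419). The values were 0.25 for Irf5 (SE 0.40, adjusted p = 0.820), 0.049 for Csf1r (SE 0.37, adjusted p = 0.965) and -0.20 for Klf4 (SE 0.65, adjusted p = 0.917), and leaving out single libraries turned the sign of each of these 3. Irf8, with 10 reads in KO and 9 in WT, and Ly86, with 15 reads in KO and 14 in WT, were too low to be tested in GATA2-GMP.

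Around the lineage genes, none of 7 partner genes passed in GATA2-GMP. Tlr4 was at 117, 127 and 138 CPM in KO, against 46.2, 54.9 and 76.4 CPM in WT, groups that did not overlap (log2 fold change 1.11, SE 0.24, edgeR adjusted p = 0.0959). Tlr4 passed with DESeq2 (adjusted p = 0.00136), with no filter (0.0195), with all 4 groups in a joint fit (0.00523) and without GATA2-GMP WT 3 (0.0148), within a range of 0.00136 to 0.393 over 14 alternatives. Of 20 monocyte genes tested none passed edgeR's threshold, with 4 higher and 2 lower at an unadjusted p under 0.05, and DESeq2 called 3 higher and 1 lower. Of 15 macrophage genes none passed, with 4 higher and none lower at an unadjusted p under 0.05, beside the 6.59% and 8.31% of all genes given above, and DESeq2 called 2, both higher. Over all genes DESeq2 called 568. Without GATA2-GMP WT 3, edgeR called 2 genes of each list, and 525 over all genes. Summed over the 23 monocyte genes the level was 4775 to 8327 CPM in KO and 5852 to 10089 CPM in WT, ranges that overlapped. The top monocyte gene, Ly6c2, averaged 2811 CPM in KO and 5660 CPM in WT. Summed over the 22 macrophage genes the level was 5518 to 5983 CPM in KO and 3851 to 5898 CPM in WT. Most of it was Ctsd, which averaged 3673 CPM in KO and 2956 CPM in WT. Vsig4 had 0 reads in both groups, and Cd163 and Siglec1 had 0 in WT. Summed over 11 dendritic cell genes it was 154 to 181 CPM in KO and 32.3 to 79.6 CPM in WT, of which Cd74 averaged 139 CPM in KO and 43.9 CPM in WT. The eosinophil sum given above was lower in every KO library than in every WT library. The part of these list levels in the Trem2, Irf4, C1qb and F13a1 values was not tested.

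**Figure D4:**
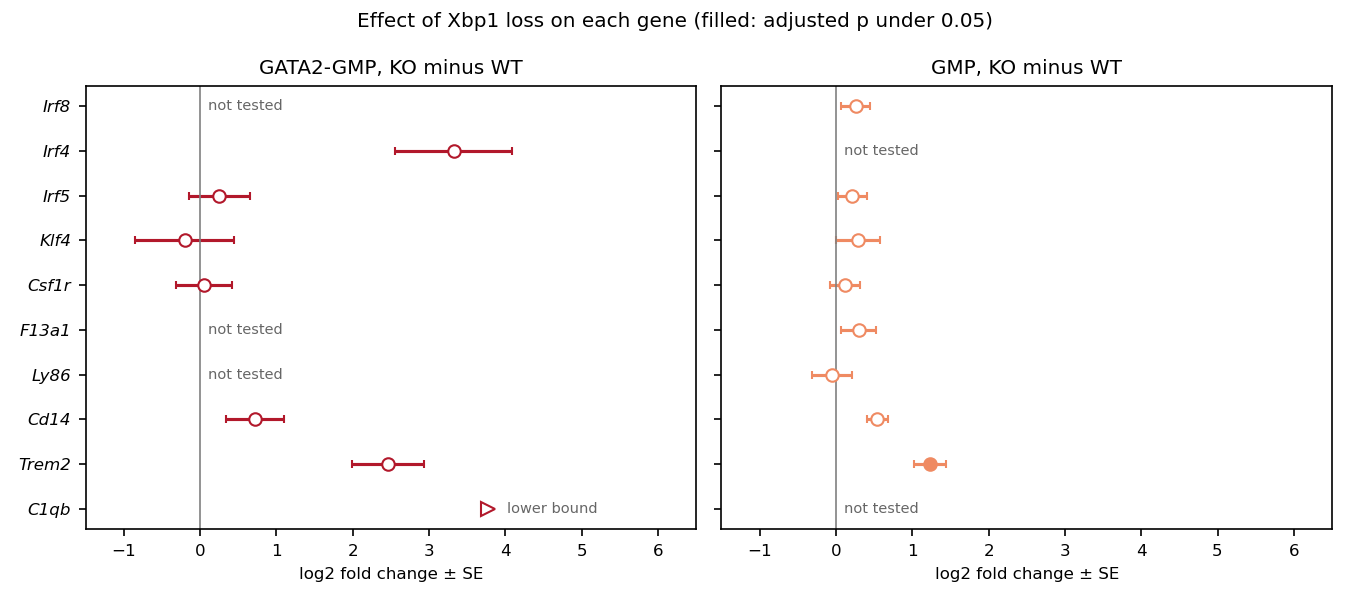
Log2 fold change of KO over WT with its SE for the 10 lineage genes in GATA2-GMP (left) and in GMP (right), filled where the adjusted p was under 0.05. Only Trem2 in GMP, at 1.23, is filled; C1qb in GATA2-GMP is drawn as a lower bound because WT had no read, and genes with too few reads are marked as not tested.

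In GMP, Trem2 rose in KO cells and no other lineage gene passed the threshold. Of 8 genes tested 1 rose and none fell, where 3.17% of all 12002 genes were called in either direction and 0.658% rose. KO and WT libraries did not overlap in 2 of the 8, Trem2 and Cd14, with KO higher in both, as in 11.3% of all genes. The median log2 fold change was 0.27, beside 0.0058 over all genes. These values are from the fit without a replicate block. With the replicate number as a block, Cd14 was called as well, and 964 genes were called in all, against 381 without it.

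Trem2 averaged 4.42 ± 0.87 CPM in GMP KO and 1.83 ± 0.33 CPM in GMP WT (SD, n = 3 each), and its lowest KO library, at 3.43 CPM, was above its highest WT library, at 2.07 CPM. The log2 fold change was 1.23 (SE 0.21, edgeR adjusted p = 0.00581). It passed in 13 of 14 alternatives, including every fit without 1 library, and did not pass with all 4 groups in a joint fit (1.26, adjusted p = 0.392). The GATA2-GMP and GMP comparisons share no library, and Trem2 was higher in KO in both, though it passed edgeR's threshold in GMP alone. The labels do not say whether the 2 stages came from the same animals, so the comparisons cannot be taken as independent.

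Cd14 averaged 11.3 ± 0.61 CPM in GMP KO and 7.64 ± 1.38 CPM in GMP WT (SD, n = 3 each), without overlap between the groups. The log2 fold change was 0.54 (SE 0.14, edgeR adjusted p = 0.0533), just short of the threshold. With the replicate number as a block it was 0.56 and passed (adjusted p = 0.00259). The block rests on same-number correlations of 0.264, 0.193 and 0.127 between GMP KO and GMP WT, which do not show that the numbers are pairs. Cd14 also passed with DESeq2 (adjusted p = 0.0264), with upper quartile scaling (0.0499), with no filter (0.0113) and without GMP WT 1 (0.0376), 5 of 14 alternatives.

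The other 6 genes tested overlapped between GMP KO and GMP WT. F13a1 averaged 676 ± 141 CPM in KO and 545 ± 121 CPM in WT (log2 fold change 0.30, SE 0.23, edgeR adjusted p = 0.631), and Irf8 averaged 352 ± 69.7 CPM in KO and 291 ± 43.6 CPM in WT (0.26, SE 0.19, adjusted p = 0.604). With the replicate block both came close to the threshold without passing it, at an adjusted p of 0.0687 for F13a1 and 0.0534 for Irf8. The log2 fold changes were 0.29 for Klf4 (adjusted p = 0.720), 0.21 for Irf5 (0.662), 0.12 for Csf1r (0.836) and -0.050 for Ly86 (0.955). Irf5 passed only without GMP KO 1 (0.42, adjusted p = 0.0142). Irf4, with 1 read in KO and 6 in WT, and C1qb, with 12 reads in KO and 6 in WT, were too low to be tested.

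Cd180, the receptor that Ly86 accompanies, was the 1 partner of 7 that changed in GMP. It was at 12.3, 14.8 and 13.4 CPM in KO, against 18.6, 18.8 and 20.5 CPM in WT, with every KO library below every WT library. It fell by 0.53 on the log2 scale (SE 0.09, edgeR adjusted p = 0.00670), with Ly86 itself at 34.8, 66.2 and 52.9 CPM in KO and 50.6, 59.1 and 48.2 CPM in WT. Sfpi1 was at 0.28 (adjusted p = 0.0501) and passed with the replicate block (adjusted p = 0.00736) and with DESeq2 (0.0116). Of 20 monocyte genes tested 1 rose and 1 fell, while with the replicate block 10 rose and 1 fell. The number called was 9 without GMP KO 1 (8 higher and 1 lower), 1 without GMP WT 3 and 0 without GMP KO 3. Over all genes, 381 were called in the main fit, 964 with the replicate block and 209 to 398 without single libraries. Pld4, an endolysosomal exonuclease gene, was at 38.5, 47.0 and 41.2 CPM in KO, against 23.8, 31.5 and 23.7 CPM in WT, and rose by 0.66 (SE 0.11, adjusted p = 0.0106). The chemokine gene Ccl9 fell by 0.37 (SE 0.07, adjusted p = 0.0108). Pld4 lost its call without GMP KO 3 (adjusted p = 0.0554) or GMP WT 3 (0.0730), and Ccl9 without GMP KO 3 (0.0523). Of 12 macrophage genes 1 changed: Ctsb, the cathepsin B gene, fell by 0.47 (SE 0.05, adjusted p = 0.000150), with 201, 208 and 196 CPM in KO and 284, 269 and 276 CPM in WT. With the replicate block Slc40a1, the iron exporter gene, rose as well (0.63, adjusted p = 0.000752), a gene named after its values were seen. With all 4 groups in a joint fit none of Cd180, Pld4, Ccl9 and Ctsb passed.

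**Figure D5:**
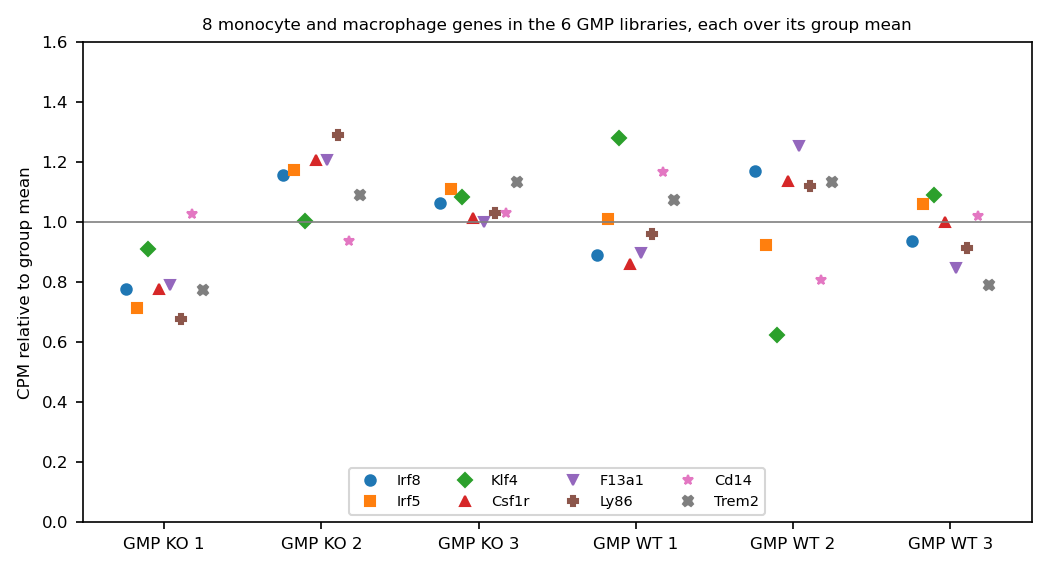
CPM of the 8 lineage genes tested in GMP, each divided by the mean of its own group, in the 3 KO and the 3 WT libraries. Most genes sit below 1 in GMP KO 1, and Irf8, Csf1r, F13a1 and Ly86 are above 1 in GMP KO 2 and GMP WT 2, while Klf4 and Cd14 are below 1 in GMP WT 2.

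Within the GMP groups several of these genes varied together by library. Irf8, Csf1r, F13a1 and Ly86, 4 of the 8 tested, were highest in replicate 2 of KO and in replicate 2 of WT, as were 18% of all genes. In KO, 7 of the 8 genes, all but Cd14, were lowest in replicate 1, as were 29% of all genes. Ly86 in GMP KO 1 was at 0.677 of its group mean, and Irf5 at 0.715. GMP KO 2 was the deepest of all libraries and GMP WT 2 the deepest of its group. GMP KO 3, the shallowest of all at 8219366 counts, was above its group mean in all 8 genes. Whether depth or the makeup of the sorted cells goes with this order was not tested.

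The difference of the genotype effect between GATA2-GMP and GMP was tested for all 10 genes, and none passed, where 0.0859% of all 12803 genes did. Irf4 at 5.69 (SE 1.63, edgeR adjusted p = 0.132), F13a1 at 3.31 (SE 1.08, adjusted p = 0.172), C1qb (adjusted p = 0.199) and Trem2 at 1.19 (SE 0.49, adjusted p = 0.276) were the 4 with an unadjusted p under 0.05, each towards a larger KO effect in GATA2-GMP, as were 5.96% of all genes at that threshold. DESeq2 called F13a1 (3.46, adjusted p = 0.0398) and gave Irf4 and C1qb no adjusted p, and it called 821 genes in all. Irf4 and C1qb entered the edgeR test largely through their GATA2-GMP KO libraries. The other 6 genes had values between -0.48 and 0.17 with adjusted p of 0.748 or more.

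Levels of different genes were compared per kilobase of exon, which counts all annotated exons of a gene and so understates genes with retained introns in the annotation. In GMP KO the order was F13a1 at 105, Ly86 at 51.5, Irf8 at 49.8, Csf1r at 31.6, Klf4 at 10.2, Cd14 at 7.17, Irf5 at 7.14 and Trem2 at 0.895 CPM per kilobase. In GMP WT the order was F13a1 at 84.6, Ly86 at 52.8, Irf8 at 41.2, Csf1r at 28.8, Klf4 at 8.28, Irf5 at 6.06, Cd14 at 4.86 and Trem2 at 0.370 CPM per kilobase. Ly86 and Irf8 overlapped over the libraries of GMP KO, as did Cd14 and Irf5, whereas F13a1 stood clear of all others in both GMP groups. In GMP WT, Klf4, Irf5 and Cd14 overlapped their neighbours. In GATA2-GMP the order was led by Cd14, at 19.3 CPM per kilobase in KO and 11.7 in WT. Irf5 followed at 4.39 in KO and 3.69 in WT, and Csf1r at 3.33 in KO and 3.23 in WT, these 2 overlapping in both groups. In GATA2-GMP KO the next were Trem2 at 0.935, C1qb at 0.810 and Irf4 at 0.560, which overlapped, while in GATA2-GMP WT every remaining gene was at 0.287 or less.

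By the correlation of log2 CPM over the 12 libraries, the genes most like Irf8 among 12803 were Usp19 (r = 0.998), Bahcc1 (r = 0.998) and Agap3 (r = 0.997), and 132 genes had r over 0.99. Those most like Csf1r were Ms4a6c (r = 0.995), Prmt1 (r = 0.994) and Plekho1 (r = 0.992), and 10 genes had r over 0.99. The libraries of a stage share culture and kit, which these values contain. Among the lineage genes themselves r with Irf8 was 0.985 for Klf4, 0.975 for Csf1r and F13a1, 0.954 for Ly86, 0.245 for Trem2, -0.324 for C1qb, -0.761 for Irf4 and -0.820 for Cd14.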

How the data were processed

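Polyadenylated RNA of 12 libraries was analysed, grouped by the labels. The deposited tables, 1 for each library, held unnormalized read counts for each gene symbol. Per the submitters' processing notes, the authors worked on mm9 and used HTSeq, DESeq, SAMtools 0.1.14 and STAR 2.3.0, with no role given for each. Annotation, read filters and strand setting are not given in the sources used here. The 5 counter rows of each table, 55.8 to 66.5% of records, were set aside. A spreadsheet had turned 27 gene names of the GMP tables into dates, of which 23 were restored and 4 left out, which left 23362 genes.

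Genes were tested in R 4.3.3 with edgeR 4.0.16 (filterByExpr, TMM, robust glmQLFit, glmQLFTest), with Benjamini-Hochberg adjustment over all genes and a threshold of 0.05. Genotype was tested within each stage and stage within each genotype, on 6 libraries each, and the difference of the genotype effect on all 12. Each SE was the absolute log2 fold change over √F. Count ratios have exact 95% binomial intervals, and a group without reads was set to a floor of 3 counts. Correlations of likeness used log2 CPM with a prior count of 2. The steps were tested on simulated data. Coordinates are of the mm9 annotation, and promoter sequences were matched by symbol.

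The members and gene lists were chosen with earlier results of these data known. Beside the 10 lineage genes, the text names partner genes and, from each list, at most the 5 genes with the largest log2 fold change among those past the threshold. Tlr4 and Sfpi1 are named as partners whether or not they passed. The alternatives were DESeq2 1.42.0, RLE and upper quartile scaling, no filter, a filter of 1 CPM in 3 libraries, a non-robust fit, a replicate block, all 4 groups in a joint fit and each library left out. Same-numbered libraries of GMP KO and GMP WT deviated together across genes (correlations 0.264, 0.193 and 0.127, against -0.212 to 0.0211 for different numbers). In GATA2-GMP, differently numbered libraries reached 0.306, so values of this size do not by themselves show pairs. The main GMP test had no replicate block, and the pairing of numbers entered only as an alternative.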

Additional observations from a re-analysis of the deposited data

How the results depend on the processing

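All members called between the stages kept their direction and their call in 13 alternatives (12 for Irf4 and C1qb in KO cells), except Irf5 and Trem2 in WT cells. Irf5 lost its call with RLE scaling (-0.64, adjusted p = 0.0532), with the 1 CPM filter (-0.69, 0.0518) and without 5 single libraries, and Trem2 with the replicate block (-1.13, 0.109) and without 4 single libraries. Trem2 in KO cells turned to -0.071 with upper quartile scaling and to -0.025 with no filter. For Irf5 the difference of the genotype effect (0.014) turned to -0.021 with DESeq2, -0.020 with RLE scaling and -0.012 with no filter. Upper quartile scaling moved the median of all genes by -0.18 in WT cells and -0.15 in KO cells.

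The number of genes called between KO and WT in GATA2-GMP was 44, and 568 with DESeq2, 294 with no filter, 3 with the replicate block and 1461 with all 4 groups in a joint fit. Without single libraries it ran from 0 to 525: it was 0 without KO 1 (1000 genes at an unadjusted p under 0.05) and without KO 3 (1444), and 525 without WT 3. In GMP it was 381, and 964 with the block and 17 in the joint fit, with 209 to 398 without single libraries (209 without KO 3, 237 without WT 3). The difference of the genotype effect had 11 calls, and 821 with DESeq2, 17 with RLE scaling, 40 with no filter, 18 with the 1 CPM filter, 18 with a non-robust fit and 0 with the replicate block (1336 at an unadjusted p under 0.05). Without single libraries it ran from 0 (without GATA2-GMP KO 1) to 1179 (without GATA2-GMP WT 3). The cause was not tested.

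Leaving out single libraries moved these log2 fold changes across 0. In GATA2-GMP the genotype value ran from -0.10 to 0.59 for Irf5, -0.45 to 0.14 for Klf4 and -0.14 to 0.42 for Csf1r. In GMP it ran from -0.024 to 0.28 for Csf1r and -0.29 to 0.18 for Ly86, and between the stages in KO cells from -0.22 to 0.31 for Trem2. The difference of the genotype effect ran from -0.79 to 0.78 for Irf8, -0.34 to 0.36 for Irf5, -0.28 to 0.28 for Csf1r, -0.66 to 0.82 for Ly86 and -0.29 to 0.46 for Cd14.

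Same-numbered libraries did not deviate together in GATA2-GMP (correlations -0.129, -0.233 and -0.410) or between the stages (-0.037 to 0.037). The numbers were not read as pairs there, although the block was run as an alternative. With the replicate block in GMP, Cd14 gained its call, as did Irf9, Sfpi1, Slc40a1 and 9 monocyte genes, and no other lineage gene crossed the threshold. Depth limits Irf4, C1qb, F13a1, Irf8 and Ly86 in GATA2-GMP, where a few reads set each value.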

Other observations

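The other interferon regulatory factor genes differed by less than Irf8 between the stages. Of 5 tested between the stages in KO cells, Irf7 rose by 1.79 (edgeR adjusted p = 0.00600) and Irf2 by 0.89, and Irf3 fell by 1.79. Of 6 tested in WT cells, Irf3 fell by 2.06, Irf2 rose by 0.64 and Irf9 by 0.52 (adjusted p = 0.0454), and Irf9 lost its call without GMP WT 1 (adjusted p = 0.117), GMP WT 2 (0.113), GMP WT 3 (0.164) or GATA2-GMP WT 2 (0.0703), and with upper quartile scaling (0.150), no filter (0.0892) or the replicate block (0.0804). Irf2 in WT cells lost its call without GMP WT 1 (adjusted p = 0.0710) or GMP WT 2 (0.0851) and with upper quartile scaling (0.0593). None of these genes passed edgeR's threshold between KO and WT at either stage (1 of 5 in GMP and none of 6 in GATA2-GMP had an unadjusted p under 0.05), nor did DESeq2 call any. With the replicate block, Irf9 in GMP rose by 0.23 (adjusted p = 0.0281).

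Of 11 dendritic cell genes, with which Irf8 and Irf4 are tied, 6 were tested between the stages in KO cells, and 4 rose and 2 fell. Cd74, the invariant chain of antigen presentation, was at 130, 129 and 158 CPM in GATA2-GMP KO and at 18.6, 53.8 and 59.3 CPM in GATA2-GMP WT, against at most 0.299 CPM in any GMP library. Flt3, the cytokine receptor gene of early and dendritic progenitors, was at 0.292, 0.128 and 0.526 CPM in GATA2-GMP KO, against 9.11, 15.8 and 13.1 CPM in GMP KO. In WT cells Flt3 was at 0.155, 0 and 0.175 CPM in GATA2-GMP, against 13.8, 17.4 and 23.9 CPM in GMP.

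In GMP KO, library 2 held 12 of 12 reads of C1qb, 11 of 11 of C1qc and 5 of 6 of C1qa. GMP KO 2 was the deepest of the 12 libraries, at 33640911 counts, while GMP KO 1, at 21857550 counts, had no C1qb read. The part of depth in these reads was not tested.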
